A study of Mus musculus with 16 samples.

Results

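Nefm, Nefl, Crmp1, Sema7a, Sox3 and Zic1 are genes known mainly from the nervous system, and their RNA was followed here across a knockdown experiment in cultures of mouse spermatogonial stem cells, which renew themselves in the testis and feed sperm production. The 6 genes were chosen by name as neural genes that differed between the Etv5 knockdown and the control arrays of these same data, so their values in that contrast describe the choice and carry no test. They are 6 of 18193 genes that the array annotation named, and they have 10 probe sets between them. A probe set is a group of short DNA probes on the array that reads 1 transcript region, and the brightest probe set stood for each gene. Of the 6 genes, 5 passed the filter on dim genes and were among the 11145 genes tested. Nefl did not pass it and has values only.

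The cultures came from Thy1+ germ cells of a C57BL/6 background, grown in serum-free medium with the growth factor GDNF at 20 ng/ml, its co-receptor GFRα1 at 150 ng/ml and 1 ng/ml of basic fibroblast growth factor (FGF2). Every group had the same 30 h treatment with small interfering RNA (siRNA), which lowers the RNA it matches for a limited time: 4 arrays had a negative control, 4 an Etv5, 4 a Bcl6b and 4 a Pou3f1 siRNA. The knockdown was partial by the values given below and was read at 30 h only, so its duration was not measured. No group was left without siRNA in the samples used here. The labels do not say whether the replicates of a group were separate cultures, so p-values measure only the spread between these arrays.

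Neurofilaments are intermediate filaments that fill the axons of neurons, and their medium and light chains are encoded by Nefm and Nefl. Semaphorins are guidance proteins that steer growing axons and also act on immune and other cells, and collapsin response mediator proteins such as the one encoded by Crmp1 carry semaphorin signals to the cytoskeleton. Sox3 and Zic1 encode transcription factors of the early nervous system, and Sox3 is also known in the testis, where spermatogonia express it. Etv5 is a transcription factor of the ETS family, whose members bind DNA at a GGAA core, and it is one of the genes that GDNF signalling turns on in spermatogonial stem cells.

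The 250 bases before the annotated starts of Crmp1, Sema7a and Zic1 are shown to let the GGAA core be seen in place. They are the genes among the 6 whose windows the sequence table used here matched, and all of them had lower values in the Etv5 knockdown, as Nefm and Nefl also did. The sequences are from RefSeq on the GRCm38.p6 build, 5′ to 3′ along the gene's own strand, and capitals mark GGAA or, for the other strand, TTCC. Crmp1 has 2 starts, at the ends of the windows chr5:37241808-37242057 and chr5:37245514-37245763 on the plus strand. The Sema7a window is chr9:57939862-57940111 on the plus strand, and that of Zic1 is chr9:91365769-91366018 on the minus strand.
Crmp1 start 1: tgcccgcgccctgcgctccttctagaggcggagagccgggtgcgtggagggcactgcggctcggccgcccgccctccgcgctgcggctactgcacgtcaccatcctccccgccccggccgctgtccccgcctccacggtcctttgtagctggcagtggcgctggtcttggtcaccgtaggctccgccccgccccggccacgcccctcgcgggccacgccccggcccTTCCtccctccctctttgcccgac
Crmp1 start 2: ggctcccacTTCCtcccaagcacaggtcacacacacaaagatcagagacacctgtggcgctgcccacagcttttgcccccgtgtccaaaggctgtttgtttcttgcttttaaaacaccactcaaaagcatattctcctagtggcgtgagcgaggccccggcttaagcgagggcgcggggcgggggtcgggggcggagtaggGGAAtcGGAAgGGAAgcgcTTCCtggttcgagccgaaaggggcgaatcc
Sema7a: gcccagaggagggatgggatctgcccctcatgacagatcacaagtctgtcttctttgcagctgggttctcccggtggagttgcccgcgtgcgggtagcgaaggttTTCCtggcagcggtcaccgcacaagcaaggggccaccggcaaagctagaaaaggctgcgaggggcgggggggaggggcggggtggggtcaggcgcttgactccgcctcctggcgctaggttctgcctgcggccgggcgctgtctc
Zic1: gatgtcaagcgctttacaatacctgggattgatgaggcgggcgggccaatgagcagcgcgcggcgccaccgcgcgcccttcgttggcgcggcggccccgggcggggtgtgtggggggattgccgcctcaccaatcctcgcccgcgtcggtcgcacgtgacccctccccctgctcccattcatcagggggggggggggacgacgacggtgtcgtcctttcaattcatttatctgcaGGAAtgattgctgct

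The GGAA core, counted on both strands, was found once in each window but that of the second Crmp1 start, which held it 5 times. Of 32851 such windows over all genes, 93.5% held at least 1 GGAA and the median was 3. The longer forms CGGAAG and AGGAAG, both of which contain GGAA, were in 13.6% and 29.5% of all windows. AGGAAG was found once at the first Crmp1 start and 2 times at the second, where CGGAAG was found once. The Sema7a and Zic1 windows held neither, and a match or its lack is a description of these letters only. On the chromosomes, Nefl and Nefm are neighbouring genes on chromosome 14. Crmp1 overlaps Evc on chromosome 5, and Zic1 overlaps Zic4 on chromosome 9, which also carries Sema7a. Sox3 lies on the X chromosome.

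Values are linear intensities as deposited, and array medians ran from 15.6 to 17.1. Differences are on the log2(intensity + 1) scale, which understates the change of dim genes. The Etv5 probe set read 2969 ± 84.0 (SD, n = 4) in the control, and the Etv5 knockdown arrays read 30.7%, 30.7%, 56.5% and 30.2% of that mean in replicates 1 to 4. Bcl6b lay between 611 and 791 in its own knockdown and between 1341 and 1526 in the control. It lay between 608 and 899 in the Etv5 knockdown, so that group had less Bcl6b RNA too. The part of Bcl6b in the Etv5 knockdown values was not tested. Pou3f1 lay between 354 and 519 in its own knockdown and between 644 and 692 in the control. Among the 16 arrays, replicate 1 of the Bcl6b knockdown was unlike the rest. Its Gapdh signal at the 3′ end exceeded that at the 5′ end by 1.03 on the log2 scale, against -0.53 to -0.45 elsewhere, and for Actb the excess was 3.08 against 0.62 to 0.76. Its mean correlation with the other arrays over all probe sets was 0.975, against 0.996 to 0.997, and its Etv5 value was 55.9% of the control mean. Results on the 6 genes are therefore given with all 16 arrays and, where it changes them, without that array. The total counts of called genes over the lists of neural genes are given both ways. In RNA from a whole culture, fewer cells that express a gene and less RNA per cell cannot be told apart.

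Nefm, the medium neurofilament chain, had its lowest group mean in the Etv5 knockdown. Its probe set 1422520_at read 4635, 4991, 4665 and 4676 in the control and 2992, 2991, 4102 and 2923 in the Etv5 knockdown, replicates 1 to 4. All 4 Etv5 knockdown arrays lay under the lowest control, with replicate 3 well above the other three. It read 4078, 4350, 4886 and 4769 in the Bcl6b knockdown and 5308, 4988, 5314 and 4560 in the Pou3f1 knockdown. Both of these groups overlapped the control. The lowest Bcl6b knockdown array, the one with the 3′ bias, was just under the highest of the Etv5 knockdown. The other Bcl6b knockdown arrays lay above every Etv5 knockdown array. From high to low, the group means were 5043 ± 356 with Pou3f1, 4742 ± 167 in the control, 4521 ± 374 with Bcl6b and 3252 ± 568 with Etv5 knockdown (SD, n = 4 each), and only the step down to the Etv5 group separated arrays that did not overlap the control. The Etv5 knockdown difference from control was -0.56 ± 0.094 (SE).

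Nefl, the light neurofilament chain and Nefm's neighbour on the chromosome, was dim. Its brighter probe set 1426255_at exceeded the array's own median on 1 of 16 arrays. It read 14.2, 13.4, 15.7 and 13.3 in the control and 9.02, 8.63, 12.5 and 10.1 in the Etv5 knockdown. The groups did not overlap, and replicate 3 was again the nearest to the control. The Bcl6b knockdown arrays ran from 12.7 to 13.6 and the Pou3f1 knockdown arrays from 13.9 to 17.0, both overlapping the control. Without the biased array the Bcl6b knockdown arrays no longer overlapped it, with the highest at 13.303 and the lowest control at 13.307. That gap is very small, and the share of all genes that separate on this smaller set of arrays was not counted. The Etv5 knockdown difference from control was -0.46 ± 0.093 (SE), and it was -0.21 with 16 in place of 1 added before the log, so its size follows that choice. The other Nefl probe set, 1454672_at, stayed between 4.43 and 4.79 on every array, near the lowest signals, and shows no level to compare.

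Crmp1, which links semaphorin signals to the cytoskeleton, had the lowest Etv5 knockdown value relative to control among the brightest probe sets of the 6 genes. Probe set 1448289_at read 113, 99.9, 125 and 97.1 in the control and 56.8, 40.2, 63.1 and 40.7 in the Etv5 knockdown. The highest Etv5 knockdown array was well under the lowest control. In the Bcl6b knockdown it read 177, 89.1, 105 and 103, and in the Pou3f1 knockdown 123, 96.2, 97.3 and 80.3. Both groups overlapped the control, and the high value of 177 was the array with the 3′ bias. The mean over the other 3 Bcl6b knockdown arrays was 98.8 ± 8.43 (SD, n = 3), beside 109 ± 12.7 in the control (n = 4). The Etv5 knockdown difference from control was -1.12 ± 0.20 (SE), or 2.17-fold lower, with an SE of 0.14 without the biased array.

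Sema7a, a membrane-anchored semaphorin, was lower in all 3 knockdowns than in the control once the biased array was left out, and lowest with Etv5 knockdown. Probe set 1459903_at read 145, 157, 129 and 132 in the control and 73.0, 60.4, 69.4 and 69.1 in the Etv5 knockdown. Here the Etv5 knockdown arrays were tight and replicate 3 was within them. The Pou3f1 knockdown arrays read 110, 98.3, 76.1 and 90.5, all under the lowest control and all over the highest Etv5 knockdown array. The Bcl6b knockdown arrays read 201, 110, 109 and 98.1. Without the biased array, which was the highest of all 16, the remaining Bcl6b arrays also lay wholly under the control. The share of all genes that separate on this smaller set of arrays was not counted. The order of means was thus control (141 ± 12.9, n = 4), Bcl6b knockdown without replicate 1 (106 ± 6.71, n = 3), Pou3f1 knockdown (93.7 ± 14.1, n = 4) and Etv5 knockdown (68.0 ± 5.36, n = 4), and the middle pair overlapped. The Etv5 knockdown difference from control was -1.04 ± 0.18 (SE), or 2.05-fold lower, with an SE of 0.10 without the biased array. Probe set 1422040_at of the same gene stayed between 4.85 and 5.22 on every array, near the lowest signals.

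Sox3, a transcription factor of neural progenitors and spermatogonia, was the member that was higher in the Etv5 knockdown. Probe set 1435192_at read 188, 171, 160 and 172 in the control and 297, 312, 267 and 283 in the Etv5 knockdown. Every Etv5 knockdown array exceeded every other array of the study. The Pou3f1 knockdown read 196, 194, 220 and 215, just over the highest control, and the Bcl6b knockdown read 100, 185, 184 and 181. The value of 100 was the biased array, in which Sox3 was thus low where Crmp1 and Sema7a were high. The other 3 Bcl6b knockdown arrays averaged 183 ± 2.42 (SD, n = 3) and lay inside the control range. The Etv5 knockdown difference from control was 0.74 ± 0.15 (SE), or 1.67-fold higher, with an SE of 0.066 without the biased array. Probe set 1450485_at of Sox3 stayed between 3.71 and 3.88 on every array.

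Zic1, a zinc finger transcription factor of the neural tube and neural crest, was read by a bright and a dimmer probe set that gave the same direction in the Etv5 knockdown but not the same size. The bright one, 1423477_at, read 2213, 2242, 2220 and 2220 in the control and 1654, 1837, 2144 and 1778 in the Etv5 knockdown. The control arrays were very close together, and replicate 3 of the knockdown read 96.4% of their mean. In the Bcl6b knockdown it read 2966, 2674, 2549 and 2339, all over the control, and in the Pou3f1 knockdown 2440, 2361, 2486 and 2121, overlapping it. The Etv5 knockdown difference from control was -0.27 ± 0.080 (SE). The dimmer probe set, 1439627_at, read 50.5, 55.3, 42.3 and 50.7 in the control and 17.3, 27.0, 24.9 and 19.2 in the Etv5 knockdown, without overlap. Its difference was -1.15 ± 0.22 (SE). Its Bcl6b knockdown arrays read 116, 49.1, 54.1 and 58.8, with the biased array again the highest, and its Pou3f1 knockdown arrays ran from 47.6 to 56.2, beside the control.

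**Figure D1:**
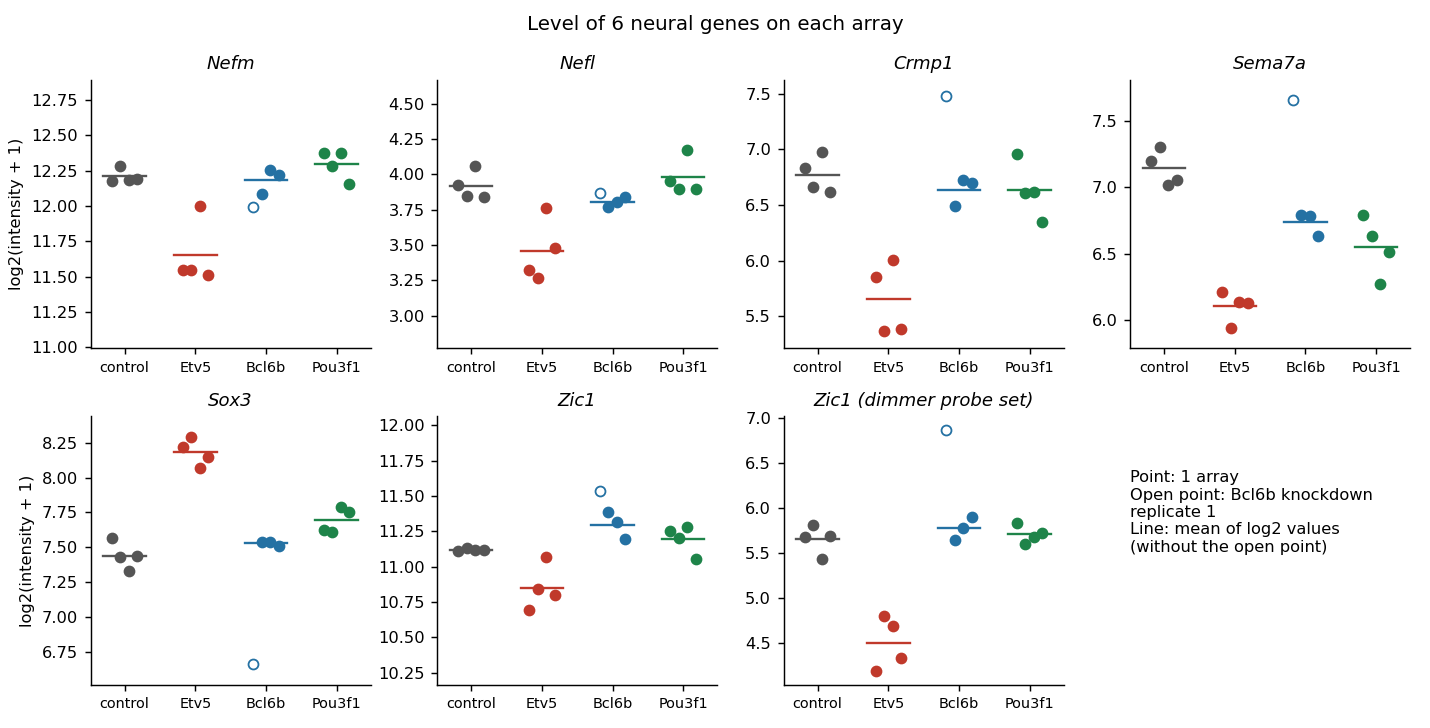
Level of each gene on each of the 16 arrays as log2(intensity + 1), with 1 panel per gene (a second panel for the dimmer Zic1 probe set) and a line at each group's mean without the open point, Bcl6b knockdown replicate 1. The Etv5 knockdown points lie below all control points in every panel but that of Sox3, where they lie above them, and the axes differ between panels, so levels are not to be compared across them.

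The first question the other siRNAs allow is whether the 6 genes differed from control when Bcl6b or Pou3f1 was lowered. Both comparisons share their control arrays with the Etv5 contrast that chose the genes. Their p-values for the members are thus not independent of that choice. With all 16 arrays, none of the 5 tested members was called against control in the Bcl6b or the Pou3f1 knockdown at an adjusted p under 0.05 (limma, Benjamini-Hochberg over 11145 genes). Over all tested genes, 3.21% were called in the Bcl6b and 2.25% in the Pou3f1 comparison. At an unadjusted p under 0.05 the count was 1 of 5 in each, Zic1 with Bcl6b and Sema7a with Pou3f1 knockdown. Without Bcl6b knockdown replicate 1, Sema7a was called in both and Sox3 in the Pou3f1 comparison, and the shares over all genes were 10.9% and 11.4%.

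Sema7a was lower in both of these knockdowns by less than in the Etv5 knockdown. Its difference was -0.59 ± 0.18 (SE) with Pou3f1 knockdown, an adjusted p of 0.121 in limma with 16 arrays and 0.000794 without the biased array, which is in neither group. That array enters the spread shared by all groups, and without it the SE of the difference was 0.10. With Bcl6b knockdown the difference was -0.17 ± 0.18 (adjusted p = 0.593) over 16 arrays and -0.40 ± 0.11 (adjusted p = 0.0222) without replicate 1. Set beside -1.04 for the Etv5 knockdown, all of these were in the same direction, and all were taken from the same control arrays.

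Sox3 was higher in the Pou3f1 knockdown by 0.25 ± 0.15 (SE), with an adjusted p of 0.568 over 16 arrays and 0.0184 without the biased array. In the Bcl6b knockdown its difference turned from -0.13 (adjusted p = 0.649) to 0.09 (adjusted p = 0.467) when replicate 1 was left out. Zic1 was 0.24 ± 0.080 (SE) above control in the Bcl6b knockdown, opposite in sign to its Etv5 knockdown value. That difference was not called, with an adjusted p of 0.123, and was 0.18 (adjusted p = 0.113) without replicate 1. The 4 Bcl6b knockdown arrays of Zic1 did not overlap the control, as held for 14.7% of all tested genes. The Pou3f1 knockdown arrays of Sema7a and Sox3 did not overlap the control either, against 18.1% of all tested genes.

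Nefm and Crmp1 were called in neither knockdown, with or without the biased array. Nefm differed from control by -0.07 (adjusted p = 0.682) with Bcl6b and by 0.09 (adjusted p = 0.83) with Pou3f1 knockdown. Crmp1 differed by 0.08 (adjusted p = 0.851) and -0.14 (adjusted p = 0.893), and the Bcl6b value turned to -0.13 (adjusted p = 0.628) without replicate 1. Nefl, untested, differed by -0.10 and 0.06. The median over the 5 tested members was -0.07 with Bcl6b and 0.08 with Pou3f1 knockdown, beside medians of -0.01 and -0.02 over all tested genes.

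The Pou3f1 and Bcl6b knockdowns were also compared with each other, which uses neither the control nor the Etv5 knockdown arrays. None of the 5 tested members was called (limma), against 2.18% of all genes over 16 arrays and 5.11% without the biased array. At an unadjusted p under 0.05 there were 2 members, Sema7a and Sox3, and without the biased array 1, Sox3. Sema7a was -0.41 ± 0.18 (SE, adjusted p = 0.287) in Pou3f1 minus Bcl6b knockdown, and -0.18 ± 0.11 (adjusted p = 0.405) without the biased array. Sox3 was 0.38 ± 0.15 (adjusted p = 0.254), and 0.17 ± 0.072 (adjusted p = 0.227) without it.

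Set against the other knockdowns in place of the control, the Etv5 knockdown kept its direction for each member. These differences also follow from the choice of the genes and are values only. Relative to the Pou3f1 knockdown they were -0.64 for Nefm, -0.52 for Nefl, -0.98 for Crmp1, -0.45 for Sema7a, 0.49 for Sox3 and -0.35 for Zic1. Relative to the Bcl6b knockdown without replicate 1 they were -0.53, -0.35, -0.99, -0.63, 0.65 and -0.45 in the same order. Sema7a, Sox3 and Crmp1 were closer to both of these knockdowns than to the control, and Nefm and Nefl were closer to the Bcl6b knockdown; none of these changes in size was tested.

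**Figure D2:**
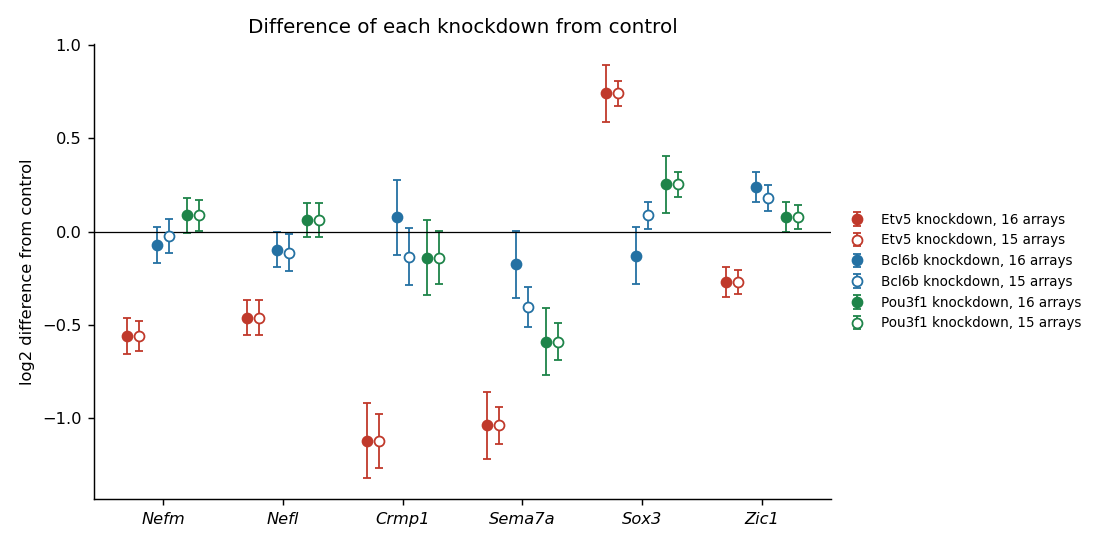
Difference of each knockdown from the 4 control arrays for the 6 genes, on the log2(intensity + 1) scale, with error bars of 1 SE, filled with all 16 arrays and open without Bcl6b knockdown replicate 1. The Etv5 knockdown values run from -1.12 for Crmp1 to 0.74 for Sox3, and for each gene the other knockdowns lie nearer to 0, with Sema7a at -0.59 with Pou3f1 knockdown.

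The Etv5 siRNA left more Etv5 RNA in replicate 3, at 56.5% of the control mean, than in the others. Nefm in replicates 1 to 4 was 63.1%, 63.1%, 86.5% and 61.7% of its control mean, and Zic1 was 74.4%, 82.6%, 96.4% and 80.0%. Both were nearest to the control in the array with the most Etv5 left. Nefl (88.8% in replicate 3), Crmp1 (58.1%) and Sox3 (155%) were also nearest in that array, so that it was nearest for 5 of the 6 members, all but Sema7a. The same held for 100 of the 228 other genes called in the Etv5 knockdown (43.9%) and for 29.5% of all tested genes. Without that array the Etv5 knockdown differences were -0.67 for Nefm, -0.56 for Nefl, -1.24 for Crmp1, -1.05 for Sema7a, 0.78 for Sox3 and -0.34 for Zic1. The part of the remaining Etv5 in these values was not tested.

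**Figure D3:**
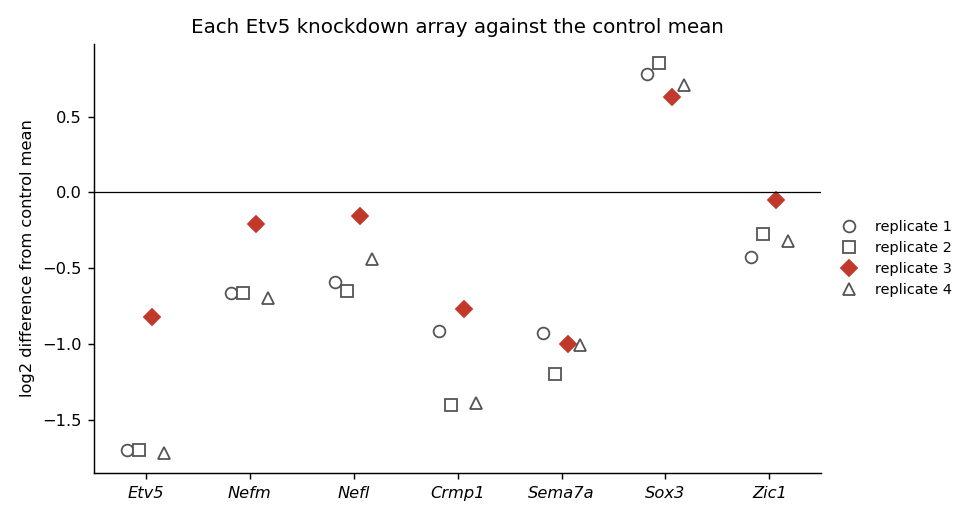
Difference of each Etv5 knockdown array from the mean of the 4 control arrays, on the log2(intensity + 1) scale, for Etv5 and the 6 genes, with 1 symbol per replicate and replicate 3 in red. Replicate 3, with 56.5% of the control Etv5 value left, lies nearest to 0 for Etv5 and for every member but Sema7a.

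Genes with the most similar course over the arrays were found by the root mean square difference of mean-centred log2 values over 15 arrays, leaving out the biased one. The search used arrays of all groups, so differences of these genes that resemble their member's follow from it and are values only. Nearest to Nefm were Foxc2 (0.074), Col13a1 (0.074) and Sez6 (0.078), whose Etv5 knockdown differences were -0.65, -0.52 and -0.58. Nearest to Crmp1 were Tmem132e (0.13), Ramp2 (0.20) and Cyp2u1 (0.21), with -0.96, -1.09 and -0.95. In the other knockdowns these 6 genes differed from control by -0.11 to 0.21. Nearest to Sema7a were Pik3cd (0.22), Paip1 (0.23) and Arhgef15 (0.23). Nearest to Sox3 were Akr1c18 (0.12), Kif26a (0.13) and Rragd (0.14), and of these Rragd was also higher in the Pou3f1 knockdown, by 0.40. Nearest to Zic1 were Pmaip1 (0.070), Esrp1 (0.072) and Igf2bp1 (0.094), each lower with Etv5 and higher with Bcl6b knockdown on these 15 arrays, as Zic1 was. The members vary by different amounts over the arrays, so these distances are not to be compared between members.

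The other genes of the same families and pathways were read from 9 lists of 175 genes, of which 89 were tested and the 6 members left out. In the Etv5 knockdown 2 of the 89 were called higher and 2 lower (4.49%), where 2.09% of all tested genes were called. Without the biased array 7 were higher and 4 lower (12.4%), against 9.52% of all genes. In the Bcl6b knockdown 4 were higher and 1 lower (5.62%, against 3.21% of all genes), and without the biased array 5 and 3 (8.99%, against 10.9%). In the Pou3f1 knockdown 2 were higher and 1 lower (3.37%, against 2.25%), and without the biased array 4 and 3 (7.87%, against 11.4%). Over 16 arrays the list share was above that of all genes in each comparison, and without the biased array only with Etv5 knockdown. The counts behind these shares are small, and some genes were called in more than 1 comparison. All 3 comparisons share the control arrays, so they are not independent, and no test was made of these shares. The median difference over the 89 genes was 0.02 in the Etv5, 0.07 in the Bcl6b and -0.00094 in the Pou3f1 knockdown. Without the biased array the Bcl6b median turned to -0.03, and the others were unchanged.

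Among intermediate filament genes 5 of 9 were tested, and Vim, the filament of mesenchymal and many cultured cells, was called higher with each siRNA. Its difference was 0.33 ± 0.050 (SE, adjusted p = 0.00189) with Etv5, 0.29 (adjusted p = 0.00341) with Bcl6b and 0.35 (adjusted p = 0.000967) with Pou3f1 knockdown. Each of these differences, like those of the other list genes, was taken from the same control arrays. The heavy neurofilament chain Nefh (-0.03, adjusted p = 0.992) and the neuronal filament gene Ina (-0.04, adjusted p = 0.996) were not called in the Etv5 knockdown. In the list of the Crmp1 family and tubulin partners none of 7 tested genes was called in limma with any siRNA over 16 arrays, against 1, 2 and 1 at an unadjusted p under 0.05 with Etv5, Bcl6b and Pou3f1 knockdown. The family members Dpysl2 (-0.08, adjusted p = 0.614) and Dpysl3 (-0.19, adjusted p = 0.482) had small differences in the Etv5 knockdown. The neuronal tubulin gene Tubb2b was 0.51 ± 0.21 (SE) above control there, with an adjusted p of 0.345, and 0.0207 without the biased array. Without that array Tubb2b was also called higher with Bcl6b (0.52, adjusted p = 0.0263) and Pou3f1 knockdown (0.54, adjusted p = 0.0122), and Dpysl3 was called lower with Bcl6b knockdown (-0.30, adjusted p = 0.0149).

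Of 19 other semaphorin genes 12 were tested, and none was called in limma with any siRNA over 16 arrays, with 1, 4 and 1 at an unadjusted p under 0.05. The secreted semaphorin Sema3a came closest in the Etv5 knockdown at 0.42 ± 0.11 (SE, adjusted p = 0.0586), in the opposite direction to Sema7a, and was called without the biased array (adjusted p = 0.0021), as it was with Pou3f1 knockdown (0.30, adjusted p = 0.0218). Of the 13 semaphorin receptors 12 were tested. The receptor gene Plxna2 was called higher with Etv5 (0.42, adjusted p = 0.0161) and Bcl6b knockdown (0.47, adjusted p = 0.00557), and Plxna1 was called lower with each siRNA, at -0.20, -0.19 and -0.24 with Etv5, Bcl6b and Pou3f1 knockdown (adjusted p = 0.0362, 0.0349 and 0.0104). Without the biased array these calls were kept, and Plxnd1 was called lower with Bcl6b knockdown (-0.27, adjusted p = 0.0422). Plxna1 and Plxna2 are receptors of other semaphorin classes. The known receptors of Sema7a were not called in the Etv5 knockdown: Plxnc1 was -0.31 ± 0.18 (SE, adjusted p = 0.608) and the integrin gene Itgb1 was 0.02 ± 0.27 (adjusted p = 0.997). Among the 33 netrin, slit and ephrin genes, 23 were tested and none was called over 16 arrays in limma, with 1, 1 and 3 at an unadjusted p under 0.05. The slit receptor gene Robo1 (-0.20, adjusted p = 0.418) and the ephrin receptor gene Epha4 (0.33, adjusted p = 0.547) had the smallest p-values in the Etv5 knockdown. With the biased array left out, Robo1 was called lower there (adjusted p = 0.016), and the ligand genes Slit2 (-0.17, adjusted p = 0.0195) and Efna5 (-0.24, adjusted p = 0.0023) were called lower in the Pou3f1 knockdown.

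Of 20 other genes of the SOX and ZIC families only 6 passed the filter, and no other ZIC gene was among them. None of the 6 was called in limma over 16 arrays, with 1, 1 and 0 at an unadjusted p under 0.05. Sox13 was -0.41 ± 0.11 (SE, adjusted p = 0.0873) in the Etv5 knockdown, against the direction of Sox3, and was called without the biased array (adjusted p = 0.000348). Among 31 other transcription factors of neural development 13 were tested, and Egr2, a growth-factor-induced gene also needed for myelin formation, was called lower in the Etv5 knockdown at -0.37 ± 0.081 (SE, adjusted p = 0.0267). Neurog3 was called higher there when the biased array was left out (0.42, adjusted p = 0.0289). Among 23 axon and synapse markers 7 were tested and none was called in the Etv5 knockdown in limma over 16 arrays, with 2 at an unadjusted p under 0.05. Without the biased array 2 were called higher there, Uchl1 (0.21, adjusted p = 0.0175) and Eno2 (0.30, adjusted p = 0.00451). Elavl2, which encodes an RNA-binding protein of neurons and germ cells, was called higher with Bcl6b (0.37, adjusted p = 0.0108) and Pou3f1 knockdown (0.31, adjusted p = 0.0388), and the enolase gene Eno2 was called higher with Bcl6b knockdown (0.35, adjusted p = 0.0229). Of 13 glial markers 4 were tested and none was called, nor did any reach an unadjusted p under 0.05 in limma over 16 arrays. The smallest p in the Etv5 knockdown was that of Cnp (0.14, adjusted p = 0.837). Without the biased array none was called either, and 1 reached an unadjusted p under 0.05 in the Etv5 knockdown.

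**Figure D4:**
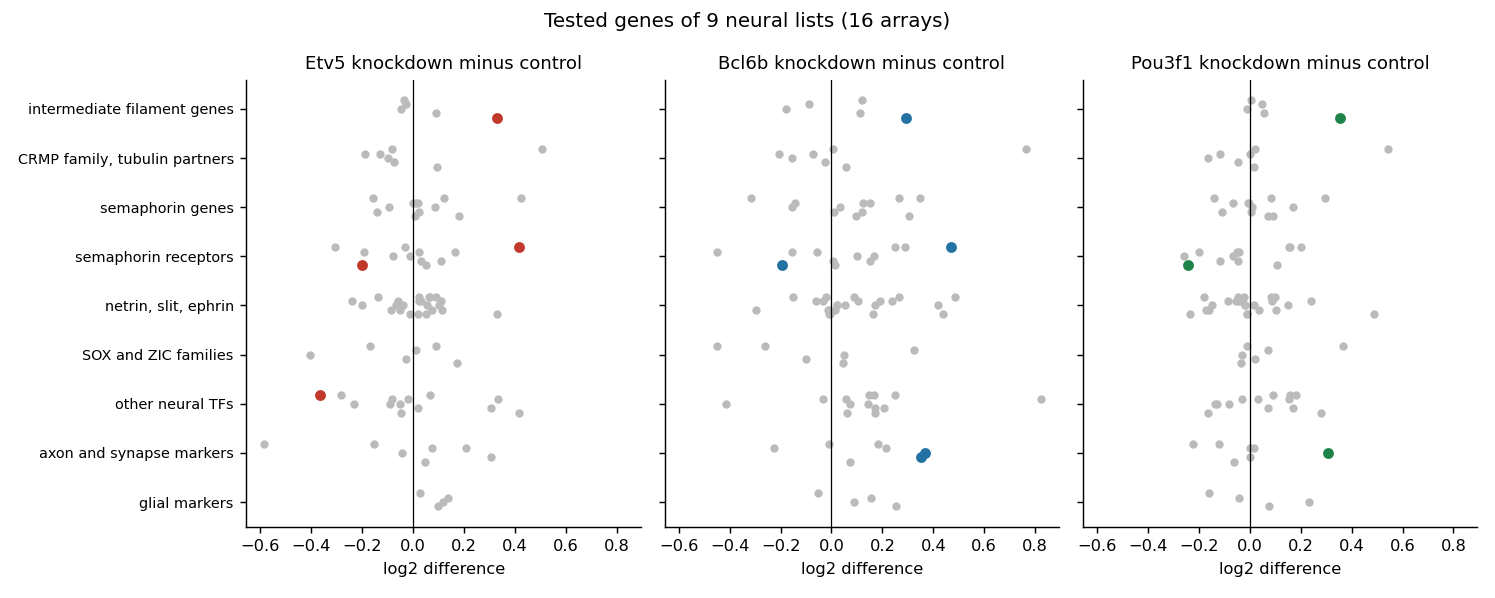
Log2 difference from control of the 89 tested genes of 9 neural lists, the 6 members left out, in 1 panel per knockdown with 1 point per gene and coloured points for genes called at an adjusted p under 0.05 over 16 arrays. The called genes are 4 with Etv5, 5 with Bcl6b and 3 with Pou3f1 knockdown, and most lists centre near 0.

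Markers of the cells in the cultures were read beside these values. Of 23 neuronal axon and synapse markers, 14 were below the array's median on all 16 arrays, among them Gap43, Snap25, Syt1, Syn1, Elavl3, Elavl4 and Rbfox3. Above it on all 16 were Ncam1 (373 to 861), Thy1 (613 to 1401), Eno2 (534 to 853), Chga (26.1 to 161), Cntn1 (37.8 to 85.2), Uchl1 and Elavl2. Syp and Nrcam were above it on 1 array each. The summed intensity of the list was 10126 to 10734 in the control and 11035 to 12052 in the Etv5 knockdown. It was 10283 to 11143 with Bcl6b and 10323 to 11263 with Pou3f1 knockdown. Most of that sum came from Uchl1 (3987 to 7319 over the 16 arrays) and Elavl2 (2228 to 3672), which germ cells express too. Of 11 glial markers 7 were below the median on all arrays, S100b, Mag, Mog and Aqp4 included. Above it on all 16 were Cnp (572 to 1082), Aldh1l1 (94.4 to 148) and Mbp (17.9 to 34.4), and Slc1a3 was above it on 7. The glial list summed to 821 to 921 in the control and 921.4 to 975 in the Etv5 knockdown. It summed to 791 to 1326 with Bcl6b and 766 to 875 with Pou3f1 knockdown, and most of this was Cnp.

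All 12 markers of undifferentiated spermatogonia on the array were above the median on every array. Their sum was 34129 to 34703 in the control, 32497 to 33782 in the Etv5, 31781 to 34769 in the Bcl6b and 34116 to 36858 in the Pou3f1 knockdown. Most of that sum came from Dazl (13438 to 17878 over all arrays) and Ddx4 (5098 to 7966). Among the 12 markers, Lhx1, a transcription factor gene of stem cell maintenance, was called lower in the Etv5 knockdown at -1.33 ± 0.20 (SE, adjusted p = 0.00193). All 12 fibroblast and feeder markers were above the median as well, with sums of 147249 to 149573 in the control and 146283 to 154854 in the Etv5 knockdown. Their sums were 142847 to 149344 with Bcl6b and 140858 to 146944 with Pou3f1 knockdown. Of 8 Sertoli cell markers 7, of 8 endothelial markers 6 and of 9 macrophage markers 4 were below the median on all arrays. The endothelial sum was 543 to 625 in the control and 436 to 582 in the Etv5 knockdown. Of the 2 tested endothelial genes, Plvap was called lower there at -1.30 ± 0.19 (SE, adjusted p = 0.0014). The other, Egfl7, was not called and its difference was positive, and the median of the 2 was -0.56. The endothelial sum was 616 to 991 with Bcl6b and 598 to 680 with Pou3f1 knockdown. Sertoli markers summed to 4996 to 5402 in the control, 5563 to 5891 with Etv5, 5473 to 8716 with Bcl6b and 5484 to 6061 with Pou3f1 knockdown. That sum was nearly all Clu (4959 to 8676), a gene of many cell types. Macrophage markers summed to 342 to 442 in the control and to 348 to 385, 348 to 389 and 319 to 409 with Etv5, Bcl6b and Pou3f1 knockdown. Without the biased array, 1 of 12 spermatogonia markers was called higher and 3 lower in the Etv5 knockdown. There 3 of 12 fibroblast markers and the 1 tested Sertoli marker were called higher. Lower were 1 of 5 tested macrophage and 1 of 2 tested endothelial markers, where 9.52% of all tested genes were called. Which cells of the culture carried the RNA of the 6 genes was not measured, and the part of other cell types in their differences was not tested.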

How the data were processed

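RNA of 16 samples of cultured spermatogonial stem cells was read on Affymetrix mouse GeneChip arrays, from oligo(dT)-primed cDNA, per the labels' protocols. The authors deposited 1 linear intensity per probe set and array, from 1.66 to 71511. Per the submitters' processing notes, the tools were Affymetrix Expression Console 1.1, Partek 6.4, MAS5 and GCRMA. What each tool did, and so the summary and normalization behind the values, is not stated in them. Precision is limited by having 4 arrays a group.

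The platform annotation gave 1 gene for 34945 of 45037 non-control probe sets, several for 932 and none for 9160, and names were taken from the first kind. The probe set brightest by mean log2(intensity + 1) stood for each of 18193 genes. Tests were run on genes that exceeded the array median on 4 or more arrays. Groups were compared with limma 3.58.1 (R 4.3.3; lmFit and trended eBayes), with the 4 groups in 1 model and no covariate, two-sided, with Benjamini-Hochberg adjustment over 11145 genes. Values of other probe sets, and of Nefl, came from fits without the filter. The script was tested on simulated data.

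The 6 genes and the gene lists were chosen with earlier results of these data known. Differences that involve the Etv5 knockdown chose the members and were not tested for them. Named genes were the members, up to 4 called genes of each list, or its 2 genes of smallest p if it had no call, and the 3 tested genes nearest to each member. Other list genes are named for their family and were chosen after their values were seen. No label gives a batch. The alternative settings were a pseudocount of 16, quantile normalization, median centring, no filter on dim genes, all probe sets, the mean over probe sets, only the groups compared, the replicate block, and each array left out. Promoter sequences came from the RefSeq table of GRCm38.p6, which matched 3 of the 6 genes by symbol, and not Nefm, Nefl or Sox3. Plots were made in Python 3.11.15 with matplotlib 3.10.9.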

Additional observations from a re-analysis of the deposited data

Results flagged for a closer look

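Of 32 groups of 4 arrays checked for a lone far value, 7 held 1 whose gap to the nearest array was past Dixon's critical value; chance gives about 1 in 20 groups. In the Etv5 knockdown, replicate 3 stood alone for Nefm (4102), for Etv5 itself (1676) and for Bcl6b (899). In the Bcl6b knockdown, replicate 1 stood alone for Sema7a (201), Sox3 (100.2) and Etv5 (1658), and it is the array with the 3′ bias. Among the control arrays, replicate 2 stood alone for Nefm at 4991, with the others between 4635 and 4676.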

How the results depend on the processing

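The direction of each member's Etv5 knockdown difference was kept under every alternative run, and the cause of the changes below was not tested unless stated. Averaging probe sets moved these differences to -0.22 for Nefl, -0.51 for Sema7a, 0.38 for Sox3 and -0.71 for Zic1, since probe sets near the floor, or the dimmer Zic1 one, enter the mean. A pseudocount of 16 gave -0.21 for Nefl. Without Bcl6b knockdown replicate 1 the Bcl6b knockdown difference turned to -0.13 for Crmp1 and 0.088 for Sox3; leaving out each array in turn gave -0.13 to 0.19 and -0.21 to 0.088.

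With only the groups compared in the fit, 2 members were called in the Pou3f1 knockdown against control, Sema7a (adjusted p = 0.00547) and Sox3 (adjusted p = 0.0409, limma). Leaving out each array in turn gave 0 to 1 members called with Bcl6b, 0 to 2 with Pou3f1 and 0 to 0 between those knockdowns. The numbers of all genes called with Etv5, Bcl6b and Pou3f1 knockdown against control and in Pou3f1 against Bcl6b knockdown were 233, 358, 251 and 243. They were 996, 62, 1140 and 74 with only the groups compared. Median centring gave 154 with Etv5 and 833 with Bcl6b knockdown, of which 15.4% were higher in place of 51.4%. All probe sets gave 596 with Bcl6b knockdown and 584 between Pou3f1 and Bcl6b knockdown. Leaving out each array gave 128 to 1061, 191 to 1220, 129 to 1268 and 166 to 570, each highest without Bcl6b knockdown replicate 1. In the neural lists, counts of 4, 5 and 3 with Etv5, Bcl6b and Pou3f1 knockdown became 11, 1 and 8 with only the groups compared, and 2 and 3 with the mean over probe sets for Etv5 and Bcl6b. Leaving out each array gave 1 to 11, 3 to 8 and 2 to 7.

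With the replicate block, 177, 277 and 195 genes were called against control with Etv5, Bcl6b and Pou3f1 knockdown, and no member with Bcl6b or Pou3f1 knockdown. Whether the numbers pair the arrays could not be settled. Deviations of same-numbered arrays correlated from -0.26 to 0.20 (median 0.062), above 0.1 in 5 of 24 pairs. Those of arrays with other numbers correlated from -0.29 to 0.20 (median -0.018), above 0.1 in 11 of 72 pairs. Of the 16 arrays, 6 correlated best with their own number. Probe sets near the floor show no changes, so nothing can be read from them. Differences of dim genes such as Nefl are compressed.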
